A study of Mus musculus with 24 samples.

Results

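Mouse embryonic fibroblasts (MEFs) lacking Myc were compared in an immortalized and in a primary state. The comparison takes 3 libraries of immortalized MycKO cells and 3 libraries of primary MycKO cells, 6 of the 24 libraries in the series. It asks which transcripts differ between cells without Myc that were immortalized with SV40 T-antigen and primary cells without Myc. Both groups came from pooled embryos of days E14 to E16 with floxed Myc alleles and a ROSA26-CreER transgene, a Cre recombinase fused to the estrogen receptor and driven from a ubiquitous promoter. Excision was started in both with 500 nM 4-hydroxytamoxifen (4OHT), and Mlx was left intact. The immortalized cells had first been exposed for 72 hr to a lentivirus encoding SV40 T-antigen and blasticidin resistance, and had been selected in blasticidin at 1 µg/ml for 5 days and at 2 µg/ml for 10 days. Their exposure to 4OHT was longer than that of primary cells. The comparator genotypes, WT, MlxKO (floxed Mlx excised) and DKO (both excised), were each sequenced in both states as 3 libraries. MlxKO and DKO cells were excised with 4OHT in the same way. Immortalized WT cells were kept without 4OHT, so 4OHT and genotype change together in that state. Primary cells received either 4OHT or the ethanol vehicle, and WT denotes cells with intact Myc and Mlx loci. Which of these the sequenced primary WT cells received is not named.

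Several features limit these groups as a model. Each group is 1 cell line of pooled embryos, in the immortalized state after 1 transduction, so the 3 libraries, and every p-value below, measure the spread within that culture, which may be technical. The paper describes primary MycKO cells as growth-arrested and immortalized ones as proliferating. It also reports most immortalized MycKO cells as tetraploid or pseudo-tetraploid, and DKO cells as stably euploid. T antigen, growth state, ploidy, drug selection, time in culture, length of 4OHT exposure and the table of deposited values all change together between states. Their parts in any difference cannot be told apart. Values of a bulk culture also do not separate fewer cells of a kind from less RNA per cell.

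SV40 large T antigen, a viral protein, binds the retinoblastoma family (Rb1, Rbl1 and Rbl2) and p53, and small t antigen binds protein phosphatase 2A. Whether the vector used here also encodes small t is not stated. The retinoblastoma proteins restrain E2F transcription factors, which drive genes for DNA synthesis, and p53 drives genes for cell cycle arrest and apoptosis. Myc, with its partner Max, drives genes of growth and division, and loss of Myc in primary fibroblasts is known for slow growth and early senescence.

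The 6 libraries held between 16081463 and 20966163 reads on genes, so 3 reads, taken as the floor of detection, corresponded to between 0.143 and 0.187 CPM (counts scaled to a common library total) and cover counting error only. Levels below are CPM after scaling all 6 libraries together by the trimmed mean of M values (TMM). They are not divided by transcript length and are compared within a gene. Immortalized library 9 and primary library 10 differed more from the other libraries of their groups than those did from each other, with a chi-square per degree of freedom between 49.7 and 61.3 and between 22.9 and 23.3, against 5.68 and 3.04. Both stayed in the analysis. All 8 fibroblast markers were above 1 CPM in every one of the 6 libraries, but their summed level was between 39233 and 40961 CPM in primary and between 12932 and 15379 CPM in immortalized libraries. Vim, an intermediate filament gene of mesenchymal cells, was at 3424, 3890.2 and 3516 CPM in primary and 4466, 4378 and 4491 CPM in immortalized libraries and did not pass the test (adjusted p = 0.055).

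Of 41710 genes, 12665 had at least 1 CPM as deposited in at least 3 of the 6 libraries and were tested on log2(CPM + 1) with limma, with Benjamini-Hochberg adjustment over all of them. At an adjusted p under 0.05, 6229 genes (49.2%) were called, 3285 higher (25.9%) and 2944 lower (23.2%) in immortalized cells, and for 7425 genes (58.6%) the libraries of both states did not overlap. The median change over all genes was 0.04 on the log2 scale. Among called genes, 2153 had a change of at least 1 log2 unit, 991 higher and 1162 lower. The split between directions depended on scaling. With library totals in place of TMM the median of all genes moved to 0.20 and 67.2% of called genes were higher (4653 against 2272), and with values as deposited 65.2% (4377 against 2339), against 52.7% with TMM. Of the genes tested, 149 reached 1 CPM in no primary library and 389 in no immortalized library, and 529 of these were called, a share that the filter itself favors. Among list members, 4 interferon-stimulated genes, 4 secreted factors, 3 Hox genes and 1 each of the MHC class I, collagen and contractile lists reached 1 CPM in 1 state alone.

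Myc itself (ENSMUSG00000022346, GRCm39 chr15:61857227-61862223, plus strand) was present in every library. Its level was 26.2, 27.2 and 27.1 CPM in primary and 16.2, 9.95 and 9.07 CPM in immortalized libraries 9, 10 and 11, and all immortalized values were below the primary ones (log2 fold change -1.17 ± 0.19 SE, adjusted p = 0.00069). Under the scaling of all 24 libraries, its mean was 27.9 ± 0.71 CPM (SD, n = 3) in primary MycKO and 98.9 ± 5.61 CPM in primary WT cells. The loxP sites flank coding exons, so reads from the rest of the transcript are still counted and the residual level does not give the share of intact alleles. Mlx (ENSMUSG00000017801, chr11:100978080-100983043, plus strand) was at 21.4, 17.5 and 20.8 CPM in primary and 26.2, 22.7 and 20.4 CPM in immortalized libraries. The groups overlapped and no change was called (0.20 ± 0.13, adjusted p = 0.24).

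The extended Myc network, transcription factors that share Max or Mlx as partner together with the Mlx targets Txnip and Arrdc4, was mostly lower in immortalized cells. Of 15 members, 14 were tested, with 2 higher, 8 lower and 4 not called, and a median of -0.47 against 0.04 over all genes. The 8, against 23.2% of all genes lower, include the targets Txnip and Arrdc4 and the excised Myc itself. Mlxipl, which encodes ChREBP, had no read in any of the 6 libraries. Max, the obligate partner of Myc, was at 68.8, 62.5 and 64.4 CPM in primary and 33.3, 32.1 and 35.2 CPM in immortalized libraries, and fell by 0.94 ± 0.10 log2 units (adjusted p = 4.3e-05). Txnip, a glucose-responsive arrestin-domain gene, fell from 134, 147 and 142 CPM to 35.1, 37.5 and 34.9 CPM, a 3.94-fold difference in means without overlap. Arrdc4, a related arrestin-domain gene, fell from 23.8, 28.7 and 25.9 to 7.28, 5.18 and 4.35 CPM (-2.06 ± 0.17). The Max-binding repressors differed among themselves. Mxd4 (-1.39), Mxi1 (-1.07) and Mnt (-0.60) were lower, Mxd1 (-0.16) was not called, and Mxd3, which is expressed around S phase, was 3.17-fold higher, at 6.69, 3.64 and 6.0 CPM in primary and 22.6, 15.1 and 14.2 CPM in immortalized libraries. Mlxip, which encodes MondoA, was lower by a small margin (-0.34, adjusted p = 0.043), a call that library totals and leaving out 5 of the 6 libraries in turn removed. The Myc paralog Mycl was 1.42-fold higher, a call lost without immortalized library 10, and Mycn (-0.12) and Mga (0.09) were not called.

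Transcripts of the proteins that T antigens bind were called higher at about the rate of all genes. Of 14 tested, 4 were higher, against 25.9% of all genes, 1 was lower and 9 were not called, with a median of 0.11 against 0.04. Trp53, which encodes p53, was at 111, 95.5 and 106 CPM in primary and 106, 103 and 109 CPM in immortalized libraries, and the groups overlapped (0.03 ± 0.10, adjusted p = 0.85). Rb1 was at 19.2, 29.5 and 22.7 CPM in primary and 40.7, 51.8 and 53.6 CPM in immortalized libraries (2.04-fold). Rbl1, which encodes p107, was at 16.9, 22.7 and 18.2 CPM and 81.3, 73.4 and 75.6 CPM (3.98-fold, adjusted p = 1.9e-06). Both were higher without overlap. Rbl2, which encodes p130, was not called (-0.06 ± 0.11, adjusted p = 0.68). The mitotic checkpoint kinase gene Bub1 (1.63) and the DNA break sensor gene Nbn (0.99) were also higher, and Irs1, an adaptor of insulin signaling, was lower (-0.49). The acetyltransferase genes Ep300 (0.05) and Crebbp (0.26), the ubiquitin ligase genes Fbxw7 (0.08) and Cul7 (adjusted p = 0.98), the chaperone gene Hspa8 (0.15, 17.1% of its 50-base stretches shared with other genes) and the phosphatase 2A genes Ppp2r1a (0.02) and Ppp2ca (0.26) were not called. With library totals, 7 of the 14 were higher.

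All 7 CDK inhibitor genes were called, 4 higher and 3 lower. Cdkn2a, which encodes p16 and p19Arf, showed the largest rise, from 57.4, 42.9 and 57.1 CPM in primary to 328, 273 and 281 CPM in immortalized libraries, 5.60-fold without overlap (2.47 ± 0.13, adjusted p = 6.3e-07). Both products share the gene and these values do not separate them. Cdkn2d (2.98-fold), Cdkn2c (2.61-fold) and Cdkn1b (2.14-fold), which encode p19, p18 and p27, also rose. Cdkn1a, the p21 gene and a p53 target, went the other way, from 463, 427 and 452 CPM to 192, 169 and 175 CPM (-1.32 ± 0.10, adjusted p = 3.7e-06). Cdkn1c (-0.72) and Cdkn2b (-0.40, with overlapping libraries) were lower by less, and the call of Cdkn2b was lost without immortalized library 10 or 11 or primary library 9 or 11.

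Among 19 G1 and S phase cyclin, CDK and E2F genes, 13 were higher and 3 lower, with a median of 0.50. The S phase cyclin Ccne2 was at 13.5, 13.4 and 11.2 CPM in primary and 74.7, 43.9 and 47.3 CPM in immortalized libraries (4.35-fold), and Ccna2 was 3.03-fold higher. E2f7 (1.90) and E2f8 (1.63), repressors of the E2F family, rose, as did the activator E2f1 (1.34), and E2f3 was not called (-0.21). The largest fall was that of Ccnd2, a G1 cyclin, from 967, 1018 and 943 CPM to 208, 257 and 233 CPM (4.19-fold). Its relatives Ccnd1 (0.28) and Ccnd3 (-0.39) changed little, in opposite directions, and Cdk6 was lower (-0.48).

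**Figure D1:**
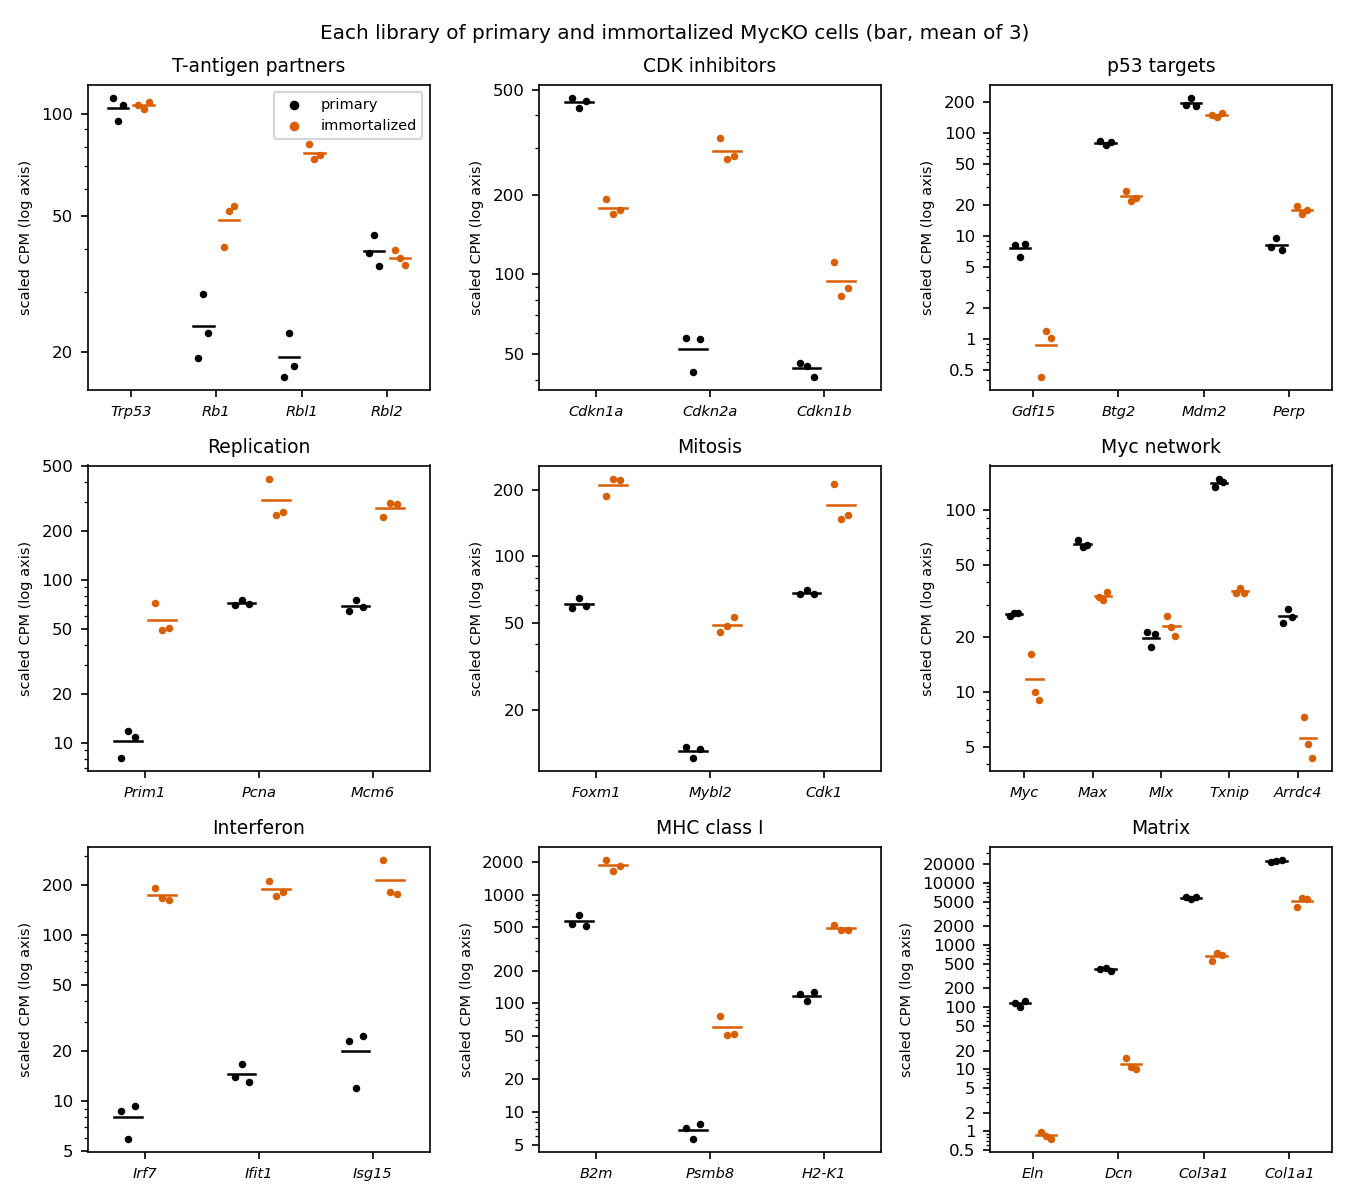
Points are the level of a gene in each library (TMM-scaled CPM on a log axis), black for primary and orange for immortalized MycKO, and short bars are means of 3 libraries. The states do not overlap for any gene shown except Trp53, Rbl2 and Mlx.

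Genes of DNA synthesis rose as a whole. All 37 DNA replication genes were higher in immortalized MycKO cells, with a median of 1.68, and the libraries of the states overlapped for none of them. The same 37 were called under every scaling, by edgeR and DESeq2, and without any single library. Prim1, the catalytic primase subunit, rose from 8.15, 11.9 and 10.9 CPM to 71.7, 49.1 and 50.7 CPM (5.53-fold, adjusted p = 5.2e-06). Immortalized library 9 stood above the other 2 for Prim1 and for the sliding clamp gene Pcna, which was at 413, 249.6 and 262 CPM against 70.5, 75.2 and 70.7 CPM in primary libraries. The 6 subunits of the MCM helicase, Mcm2 to Mcm7, rose by between 1.40 (Mcm7) and 1.97 (Mcm6). The smallest rises were those of Gins4 (0.71) and the ribonucleotide reductase subunit Rrm1 (0.74).

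Mitotic genes rose as a whole too. All 32 were higher without overlap, with a median of 1.26, again under every scaling, both count tools and without any library. Mybl2, a transcription factor that acts with the DREAM-related MuvB complex, rose from 13.7, 12.2 and 13.4 CPM to 45.4, 48.4 and 52.9 CPM (3.74-fold). Foxm1, a transcription factor of the G2 phase, rose from 58.1, 64.6 and 59.2 CPM to 188, 223 and 223 CPM (3.49-fold). Of the 50-base stretches of Mybl2 and Pcna, 14.7% and 17.4% also occur in other annotated genes, so their counts are uncertain. Other members included Top2a (1.54), which untangles chromosomes, the mitotic kinase genes Cdk1 (1.30), Aurkb (1.57) and Plk1 (0.84), and Cenpa (0.75), the centromeric histone, with the smallest rise. Mki67, the Ki-67 proliferation marker, was at 106, 142 and 114 CPM in primary and 253, 348 and 348 CPM in immortalized libraries (1.38 ± 0.15, adjusted p = 6.3e-05).

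Promoters of these lists are shown because members of each moved together. RefSeq windows on GRCm38.p6, from 250 bases before to 50 bases after a start site, were searched on both strands for an E2F motif (TTTNNCGC), the CHR element (TTTGAA), the CCAAT box (CCAAT), the E-box bound by Myc and Mlx partners (CACGTG) and the interferon-stimulated response element, ISRE (GAAA and, after any 2 bases, GAAA again). A single window per gene, the most upstream, was used, 27025 in all. The E2F motif was in 13 of 29 replication windows (44.8%), 1 of 26 mitotic windows (3.85%) and 5.29% of all windows. CHR was in 18 of 26 mitotic windows (69.2%), 4 of 29 replication windows (13.8%) and 18.2% of all. CCAAT was in 62.1% and 73.1% of replication and mitotic windows and 38.0% of all, and the E-box in 13.8%, 7.69% and 7.24%. A window of Foxm1 was not shown. Below are Prim1 (chr10:128014965-128015264, plus strand) and Mybl2 (chr2:163054385-163054684, plus strand), each with the largest rise of its list, and Mcm6 (chr1:128359656-128359955, minus strand) and Ect2 (chr3:27153829-27154128, minus strand), which were chosen after values and matches were seen as the members with the largest rise and an E2F or CHR match. Capitals mark matches to any of the 5 motifs.
Prim1: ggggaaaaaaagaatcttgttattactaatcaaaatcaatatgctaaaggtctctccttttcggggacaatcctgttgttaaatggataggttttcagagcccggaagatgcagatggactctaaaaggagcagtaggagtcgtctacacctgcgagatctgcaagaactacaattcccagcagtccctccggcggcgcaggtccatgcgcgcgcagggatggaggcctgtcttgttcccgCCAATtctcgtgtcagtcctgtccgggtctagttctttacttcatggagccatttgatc
Mybl2: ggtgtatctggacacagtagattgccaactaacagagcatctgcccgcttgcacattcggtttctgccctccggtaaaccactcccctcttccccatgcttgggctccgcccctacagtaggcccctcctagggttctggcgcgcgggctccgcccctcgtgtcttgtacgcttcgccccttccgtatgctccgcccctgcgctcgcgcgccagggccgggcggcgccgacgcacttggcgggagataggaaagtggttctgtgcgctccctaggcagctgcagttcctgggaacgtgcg
Mcm6: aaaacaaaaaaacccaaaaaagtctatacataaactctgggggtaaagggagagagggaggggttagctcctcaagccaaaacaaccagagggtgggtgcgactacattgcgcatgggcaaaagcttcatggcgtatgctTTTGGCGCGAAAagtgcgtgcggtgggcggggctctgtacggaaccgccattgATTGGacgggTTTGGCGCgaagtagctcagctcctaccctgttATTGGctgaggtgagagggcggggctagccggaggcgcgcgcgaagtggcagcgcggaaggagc
Ect2: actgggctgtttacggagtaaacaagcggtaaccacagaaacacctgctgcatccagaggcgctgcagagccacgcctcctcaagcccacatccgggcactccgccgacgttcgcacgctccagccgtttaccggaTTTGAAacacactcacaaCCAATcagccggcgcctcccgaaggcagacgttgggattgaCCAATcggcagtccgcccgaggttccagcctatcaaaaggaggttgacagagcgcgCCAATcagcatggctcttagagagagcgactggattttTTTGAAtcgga
The Prim1 window held 1 CCAAT match and no other, and the Mybl2 window held none of the 5. The Mcm6 window held 3 E2F matches, of which an adjoining pair overlaps on opposite strands, and 2 CCAAT matches. The Ect2 window, of a gene for a regulator of cytokinesis, held 2 CHR and 3 CCAAT matches.

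DNA repair genes were higher in part. Of 34 tested, 24 were higher and 0 lower by limma, with a median of 1.15, and DESeq2 or edgeR called at most 1 lower. The checkpoint kinase gene Chek1 rose from 7.14, 7.28 and 4.89 CPM to 24.4, 26.3 and 26.1 CPM (3.98-fold). Homologous recombination and Fanconi genes such as Brca1 (1.48), Brca2 (1.45) and Fanca (1.62) rose, whereas Chek2 (-0.13), the nucleotide excision gene Xpa (-0.17) and the end-joining genes Lig4 (0.34) and Nhej1 (0.14) were not called. Telomere genes showed 6 higher and 1 lower of 10 tested. The shelterin genes Tinf2 (2.26-fold) and Terf1 (1.78-fold) were higher, and Tert, the telomerase catalytic subunit, was lower, at 5.23, 4.57 and 5.19 CPM in primary and 3.28, 2.14 and 1.74 CPM in immortalized libraries. Of 9 high mobility group genes, which encode architectural chromatin proteins, 7 were higher. Hmga1 was at 351, 254 and 368 CPM in primary and 1056, 1063 and 1001 CPM in immortalized libraries. Hmgb2 was at 39.1, 33.9 and 32.5 CPM and 133, 99.6 and 113 CPM. Of their stretches, 25% and 12.7% are shared.

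Direct targets of p53 were lower in most cases. Of 28 tested, 19 were lower, 3 higher and 6 not called, with a median of -0.66 against 0.04 over all genes. Gdf15, a stress-induced cytokine, fell from 8.26, 6.29 and 8.37 CPM to 0.434, 1.19 and 1.02 CPM (8.64-fold, adjusted p = 1.3e-05). Btg2, an antiproliferative gene, fell from 84.3, 76.1 and 81.3 CPM to 27.7, 21.8 and 23.2 CPM, and Cdkn1a fell as given above. None of these libraries overlapped between the states. Mdm2, the ubiquitin ligase for p53, was lower by less (-0.38 ± 0.10), and the apoptosis genes Fas (-1.19) and Bbc3 (-0.85) were lower whereas Bax (-0.19) and Apaf1 (-0.04) were not called. The 3 members that rose were Perp (2.16-fold), a gene of desmosomes, Sesn1 (2.12-fold), a stress-responsive inhibitor of mTORC1, and Pmaip1 (1.44-fold), which encodes Noxa. Under other scalings between 17 and 20 members were lower. The Gdf15 window (GRCm38.p6 chr8:70632407-70632706, minus strand), shown as the member with the largest fall, held no match to the 5 motifs, and a Perp window was not shown. None of the 5 is a p53 motif, which was not searched for, so the lack of a match says nothing about p53 sites.
Gdf15: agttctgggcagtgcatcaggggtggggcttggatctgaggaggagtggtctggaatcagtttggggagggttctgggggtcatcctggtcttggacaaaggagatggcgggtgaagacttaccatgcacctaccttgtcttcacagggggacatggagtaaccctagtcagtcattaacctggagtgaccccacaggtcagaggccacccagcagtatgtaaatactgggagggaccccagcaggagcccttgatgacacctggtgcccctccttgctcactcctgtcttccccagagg

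Interferon-stimulated genes, which encode antiviral effectors and their inducers, had the highest median change of the lists. Of 30 tested, 29 were higher and 1 was not called, with a median of 2.44. Ifi44 rose from 5.90, 7.95 and 6.25 CPM to 169.5, 159 and 169 CPM, 24.7-fold (4.44 ± 0.12, adjusted p = 2e-08). Irf7, the transcription factor that amplifies interferon production, rose from 8.71, 5.96 and 9.38 CPM to 191, 168 and 162 CPM, 21.6-fold. Primary and immortalized libraries of both genes lay far apart. The effectors Ifit1 (13-fold), Isg15 (10.7-fold), Oasl2 (11.6-fold) and Usp18 (21.5-fold), a feedback inhibitor, were higher, as were the signal transducers Stat2 (4.40-fold) and Irf9 (3.06-fold). The nucleic acid sensors Ifih1 (4.54-fold), Cgas (3.34-fold) and Rigi (2.73-fold) were also higher. Sting1, the adaptor of the cGAS pathway, was at 45.4, 43.6 and 41.6 CPM and 40.2, 45.6 and 49.9 CPM and was not called (adjusted p = 0.74), and Irf1 was higher by 0.35. Of the 30, 4 reached 1 CPM as deposited in no primary library, and passed the filter only through the immortalized ones. With an immortalized library left out, 26 members passed the filter and 24 or 25 were higher, and with a primary library left out, 28 or 29 of 30.

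The genes of MHC class I presentation rose with them. Of 10 tested, 9 were higher, with a median of 1.88. B2m, the invariant light chain, was at 542, 651 and 514 CPM in primary and 2067, 1657 and 1843 CPM in immortalized libraries (3.26-fold). The immunoproteasome subunit Psmb8 rose 8.72-fold, from 7.14, 5.70 and 7.76 CPM to 77.1, 50.8 and 51.8 CPM. Nlrc5, the transactivator of class I genes, rose 7.74-fold, the peptide transporter genes Tap1 and Tap2 rose 3.48-fold and 1.95-fold, and Psmb10 (0.46, adjusted p = 0.053) did not pass the test. The heavy chain genes H2-K1 (4.17-fold) and H2-D1 (3.99-fold) have near copies in the genome. ISRE matches were in 11 of 21 windows of interferon-stimulated genes (52.4%), 1 of 8 MHC class I windows (12.5%) and 3.49% of all windows. The window of Ddx60 (GRCm38.p6 chr8:61927837-61928136, plus strand), an RNA helicase gene that rose 20.9-fold, was chosen after values and matches were seen as the member with the largest rise and an ISRE match, of which it held 2, with 1 CCAAT match.
Ddx60: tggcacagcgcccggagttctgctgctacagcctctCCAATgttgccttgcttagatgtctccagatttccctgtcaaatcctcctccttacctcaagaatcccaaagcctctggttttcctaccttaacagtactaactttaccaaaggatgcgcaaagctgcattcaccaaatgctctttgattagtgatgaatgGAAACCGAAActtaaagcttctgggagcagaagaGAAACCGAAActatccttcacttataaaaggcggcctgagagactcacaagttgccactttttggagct

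Matrix genes were lower as a class. All 20 collagen chain genes fell, with a median of -2.05 and no overlap between the states. Col1a1, the main chain of type I collagen, fell from 21669, 22260.3 and 22926 CPM to 4047, 5761 and 5393 CPM (4.40-fold), and Col3a1 from 5939, 5476 and 5949.8 CPM to 542, 742 and 698 CPM (8.76-fold). Col14a1 and Col10a1 fell most (-4.63 and -4.08), and Col8a1 least (-0.57). Of 22 other matrix and matricellular genes, 18 were lower and 1 was higher, with a median of -1.33. Elastin, Eln, fell from 119, 102 and 126 CPM to 0.964, 0.846 and 0.768 CPM (-5.97 ± 0.13, adjusted p = 1.4e-08). Lum, a small proteoglycan, fell from 73.2, 78.2 and 65.6 CPM to 0.096, 0.547 and 0.922 CPM. Dcn, its relative, fell from 411, 422 and 383 CPM to 15.4, 11 and 10.2 CPM. Neither had overlapping libraries. Postn (7.16-fold lower), Thbs1 (3.73-fold lower) and Fn1 (2.24-fold lower) fell by less, Spp1 (0.19) and Fbln2 (-0.28) were not called, and Ccn2 rose by 0.32, a call that median-ratio scaling and leaving out 4 of the 6 libraries in turn removed.

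Contractile genes did not share this pattern. Of 18 tested, 3 were higher, 6 lower and 9 not called, with a median of -0.18. This rate of calls was close to that of all genes (49.2% called, 25.9% higher and 23.2% lower). Acta2, smooth muscle actin, was at 6279, 6505 and 6604 CPM in primary and 5480.3, 5313 and 5669 CPM in immortalized libraries (adjusted p = 0.13), and Tagln also did not pass (-0.32). Desmin, Des, fell from 33, 28.2 and 32.2 CPM to 0.048, 0.149 and 0.102 CPM, the latter at or under the floor in every library. Myh11, a smooth muscle myosin, was lower by less (-0.76), and Cnn2 (0.38) and Vcl (0.36) were higher. The number of higher calls fell to 0 without immortalized library 10, immortalized library 11 or primary library 9 and to 1 with median-ratio scaling, and without immortalized library 9 the counts were 4 higher and 9 lower. Of the fibroblast markers, Pdgfra (-1.40), Pdgfrb (-1.57) and Thy1 (-1.30) were lower and S100a4 (0.14) was not called.

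Factors of the senescence-associated secretory program were mostly lower. Of 29 listed, 26 were tested, with 22 lower, 3 higher and 1 not called, and a median of -1.18. The matrix metalloproteinase Mmp3 fell from 155, 124 and 140.2 CPM to 3.81, 3.19 and 4.0 CPM (38.2-fold) and the growth factor binding protein Igfbp2 from 543, 439 and 567 CPM to 30.7, 23.8 and 25.4 CPM (19.4-fold). Il6 was low in both states, at 5.17, 5.50 and 5.75 CPM and 1.59, 0.498 and 0.973 CPM (-1.71, adjusted p = 8.2e-05). The 3 that rose were 2 chemokines and a growth factor. Cxcl5 rose from 15.3, 16.9 and 15 CPM to 129, 102 and 109 CPM. Ccl5 rose from 0.899, 0.596 and 0.756 CPM to 11.5, 9.71 and 9.43 CPM. Areg, the growth factor, rose from 0.731, 0.464 and 0.202 CPM to 2.80, 1.59 and 1.90 CPM. Cxcl2, Csf2 and Il1a were too low to be tested. With any immortalized library left out, 24 members were tested and 1 was higher. Members at 1 CPM only in immortalized libraries, such as Ccl5, then cannot pass the filter, so this drop was fixed by it. Lysosomal genes were split, with 11 lower, 3 higher and 14 not called of 28. They were called about as often as all genes, of which 49.2% were called, 23.2% lower and 25.9% higher. Ctsk, cathepsin K, fell from 179, 136 and 170.1 CPM to 32, 22.6 and 23.3 CPM (6.23-fold), the lysosomal lipase gene Lipa fell 2.02-fold, and Hexa, a hexosaminidase subunit gene, rose 1.26-fold. Higher calls numbered 5 without immortalized library 9 and 1 without immortalized library 10 or 11 or primary library 9 or 11, and the call of Hexa was lost without any of the libraries except immortalized library 9.

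Markers of other cell types moved with these groups. The summed level of 12 macrophage markers was between 60.5 and 91.4 CPM in primary and between 1.49 and 2.39 CPM in immortalized libraries. All 10 tested were lower, but 9 of them entered the test through the primary libraries alone, as did 2 glial markers, so that this count was fixed by the filter. Adgre1, C1qa, C1qb, C1qc and Tyrobp had no read in any immortalized library. For C1qb, at 5.90, 3.31 and 3.08 CPM in primary libraries, the fall was at least 26.7-fold against a floor of 3 reads in each immortalized library. Of 4 markers each tested for neural and glial cells, for cartilage and bone and for fat, 3 were lower and 1 was higher in each list. Among glial and neural markers Sox10 went from 7.31, 7.42 and 8.67 CPM to 0 in all immortalized libraries, and Map2 rose 2.18-fold. Among cartilage and bone markers Col2a1 fell 35.9-fold and Runx2 rose 1.38-fold, and among fat markers Lpl fell 8.49-fold and Pparg rose 2.28-fold. Of 6 endothelial markers, 2 were tested and 1, Kdr, rose 2.81-fold. The summed level of the 6 was between 5.40 and 8.94 CPM in primary and between 13.5 and 17.4 CPM in immortalized libraries. Kdr alone was at 12.4, 15.7 and 15.6 CPM in immortalized libraries and made up most of this sum. Tek was not called, and Pecam1, Cdh5, Tie1 and Emcn were too low to be tested. Summed levels of epithelial and skeletal muscle markers were at most 2.32 and 3.13 CPM in any library. The part of these cells in the falls of matrix, secreted and lysosomal genes was not tested.

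Hox genes, which hold a positional code along the body axis and limbs, moved in opposite directions by position in the cluster. Of 39 genes, 34 were tested, with 10 higher, 16 lower and 8 not called, and a median of -0.36. Of 13 with paralog numbers 1 to 5, 11 were lower and 0 higher (median -1.04). Of 11 with numbers 6 to 9, 4 were lower and 2 higher (median -0.23). Of 10 with numbers 10 to 13, 8 were higher and 1 lower (median 1.10). Over all genes, 25.9% were higher and 23.2% lower. This grouping was chosen after the values were seen. Of the 34 tested, 3 reached 1 CPM in 1 state alone, Hoxd12 and Hoxd3 among them, so their direction was fixed by the filter. Hoxd13, which patterns the distal limb, rose from 14.4, 15.7 and 10.7 CPM to 122, 139 and 148 CPM (10-fold, adjusted p = 2.3e-07) and Hoxd12 from 0.843, 0.662 and 0.857 CPM to 10, 11.3 and 8.45 CPM. Hoxa13 (6.57-fold) and Hoxd11 (6.0-fold) rose as well. Hoxd3 fell most, from 2.36, 2.58 and 1.92 CPM to 0, 0.448 and 0 CPM. Hoxd4 fell from 5.84, 4.37 and 6.15 CPM to 0.916, 1.59 and 1.38 CPM. Both are uncertain, since 36.9% and 46.5% of their 50-base stretches are shared with other annotated genes. Hoxc10 was the exception at the distal end (-1.29 ± 0.14).

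**Figure D2:**
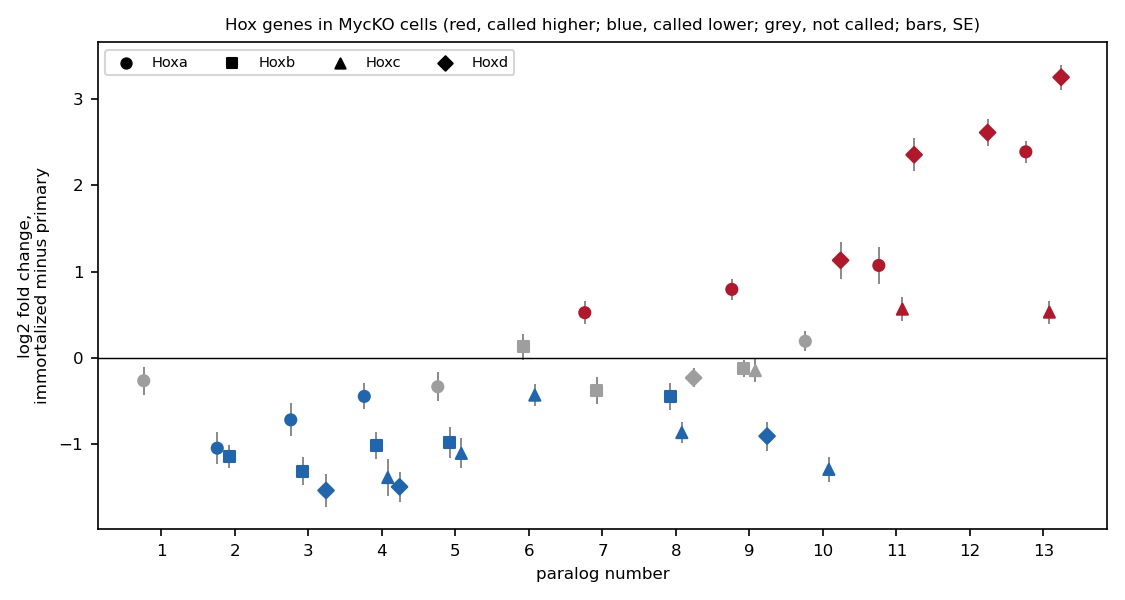
Log2 fold changes (immortalized minus primary MycKO, bars SE) of the 34 tested Hox genes are set against paralog number, with a marker shape for each cluster and color for the limma call. The 13 genes with numbers 1 to 5 lie below 0, 11 of them called, and Hoxd11, Hoxd12, Hoxd13 and Hoxa13 lie above 2.

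Imprinted growth genes were mostly lower. Of 17 tested, 12 were lower and 3 higher, with a median of -1.38. Dlk1, a Notch-like growth regulator, fell from 67.4, 67.7 and 72.3 CPM to 7.47, 6.87 and 6.30 CPM (10-fold). Igf2, a fetal growth factor, fell from 753, 762 and 765 CPM to 93.1, 118 and 98.6 CPM, with 56.3% of its stretches shared with other annotated genes. Its neighbor H19, a noncoding RNA, fell from 751, 563 and 735 CPM to 92.3, 101 and 100.3 CPM. Peg3 (5.92-fold) and Meg3 (5.61-fold) fell, Nnat (0.90) and Peg10 (0.58) rose, and Gnas (0.07) and Grb10 (-0.14) were not called. Sex-linked genes differed between the states as well. Xist, the noncoding RNA of the inactive X chromosome, was at 104, 148 and 104 CPM in primary and 373, 477 and 439.9 CPM in immortalized libraries. The 4 Y-linked genes tested, Ddx3y, Eif2s3y, Kdm5d and Uty, fell by between 1.59 (Uty) and 2.00 (Ddx3y) log2 units, and Ddx3y was at 74.4, 85.9 and 68.2 CPM and 18, 18.8 and 18 CPM. Whether the share of male and female embryos differed between the cultures, and its part in other differences, was not tested.

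Metabolic and biosynthetic lists had medians between 0.01 and 0.42. Of 23 sterol synthesis and uptake genes, 15 were higher and 0 lower, with a median of 0.42. Idi1 (2.60-fold), with 17.0% of stretches shared, and Msmo1 (2.56-fold), from 71.1, 79.7 and 68 CPM to 189.9, 178 and 193 CPM, rose most. The regulator Srebf2 (0.23) was not called. Of 17 glycolysis genes tested, 1 was higher and 3 lower, with a median of 0.07. Tpi1 was higher (0.53), the lactate exporter Slc16a3 (-0.65), Pfkfb3 (-0.60) and Pfkm (-0.49) were lower, and Ldha (0.30) and Hk2 (-0.10) were not called. Without immortalized library 9 the counts were 3 and 3, and without primary library 10 they were 2 and 5. Of 32 ribosome biogenesis genes, a class of known Myc targets, 0 were higher and 5 lower by limma, with a median of 0.01. Ddx21 (-0.44) and Nop16 (-0.44) fell most, and nucleolin, Ncl, was at 404, 399 and 403 CPM and 292, 354 and 373 CPM (adjusted p = 0.089). With library totals 7 of the 32 were higher and 1 lower, so the direction of this list depends on scaling. Lower calls numbered 1 without primary library 9 or 11, 2 without immortalized library 10, and 3 without immortalized library 11 or primary library 10, and without immortalized library 9 there were 3 higher and 5 lower.

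The 10 largest falls among called genes without overlap were those of Eln, Lgr5, Dpt, Gpx3, Lum, Mfap4, Pcsk5, Egfl6, Fmod and Lyz2, between -5.97 (Eln) and -5.02 (Lyz2). Most encode matrix or secreted proteins. Lgr5, a receptor that strengthens Wnt signaling, fell from 517, 718 and 518 CPM to 7.91, 8.01 and 9.53 CPM (68.9-fold), and Dpt, dermatopontin, from 129, 111 and 126 CPM to 1.49, 0.697 and 1.02 CPM (114-fold). Gpx3, a secreted glutathione peroxidase, fell from 88.9, 76.6 and 86 CPM to 0.820, 0.597 and 0.717 CPM (118-fold). Lyz2, the lysozyme of macrophages, belongs to the macrophage markers above. Pcsk5, a proprotein convertase, was at 45.1, 42.1 and 43 CPM in primary libraries and under or near the floor in immortalized ones (0, 0.05 and 0.154 CPM). Egfl6 was at 50.5, 45.8 and 43.7 CPM in primary and 0.096, 0.299 and 0.102 CPM in immortalized libraries.

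Among the 10 largest rises of called genes without overlap were those of Stmn2, Ifi44, Klra4, Tgtp2, Grin3a, Irf7, Tgtp1, Usp18 and Ifi27l2a, between 4.15 (Ifi27l2a) and 4.46 (Stmn2). Ifi44, Irf7, Usp18, Ifi27l2a, Tgtp1 and Tgtp2 are known interferon-induced genes. Tgtp1 and Tgtp2 are near copies, with 82.6% and 86.6% of stretches shared, so reads may be split between them. Stmn2, a microtubule regulator of neurons, rose from 1.01, 1.59 and 1.76 CPM to 60.5, 46 and 52.4 CPM, and the glutamate receptor subunit gene Grin3a from 0.731, 0.662 and 1.56 CPM to 31.2, 43.6 and 39.5 CPM. Klra4, a receptor gene of natural killer cells, was at 0.112, 0 and 0 CPM in primary libraries, under the floor, and at 37.7, 15.1 and 15.7 CPM in immortalized libraries. Immortalized library 9 held the highest value of Klra4 and of Ifi27l2a, which was at 124, 32.8 and 34.3 CPM in libraries 9, 10 and 11.

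Whether the change on immortalization differed from that in the other genotypes was tested as a difference of differences over all 24 libraries, on 13636 genes, in limma with Benjamini-Hochberg adjustment. The change in MycKO cells differed from that in WT cells for 5438 genes (39.9%), 2970 above 0 (21.8%) and 2468 below (18.1%). It differed from that in MlxKO cells for 3888 genes (28.5%), 2224 above 0 (16.3%) and 1664 below (12.2%), and from that in DKO cells for 3456 (25.3%), 1743 above 0 (12.8%) and 1713 below (12.6%). Immortalized WT library 4 stood apart from the other 2 of its group, with Pearson's r over genes of 0.952 and 0.958 against 0.993 between the others. Without it, 6697 genes differed from WT. Levels in this comparison are CPM after scaling all 24 libraries together. The comparisons share the MycKO libraries, so their counts are not independent.

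The rise of cell cycle genes was larger in MycKO than in WT cells. Of 37 replication genes, 31 had a difference above 0 and 0 below, with medians of 1.68 in MycKO and 0.80 in WT cells, and of 32 mitotic genes 17 and 0, with 1.25 and 0.70. Without immortalized WT library 4 the counts above 0 were 36 and 29. The paper reports primary MycKO cells as growth-arrested, with many cell cycle transcripts below those of proliferating WT cells. Levels by genotype are not given for these lists, so a larger rise does not mean a higher level in immortalized MycKO cells. Compared with DKO cells, whose medians were 1.91 and 1.66, 13 replication and 10 mitotic genes had a difference below 0 and 0 above. Interferon-stimulated genes had a median change of 2.44 in MycKO, 2.53 in MlxKO, 2.17 in DKO and 0.25 in WT cells. Of 30, 19 differed from WT above 0 and 1 below, 0 and 6 from MlxKO, and 1 and 1 from DKO. Macrophage markers differed from WT as well. Their summed level was between 375 and 744 CPM in primary WT and between 63.5 and 94.6 CPM in primary MycKO libraries, and all 12 had a difference from WT above 0 (median 2.58). In primary MlxKO libraries the sum was between 403 and 503 CPM, and 11 of the 12 had a difference from MlxKO above 0 and 0 below (median 2.24). The part of macrophages in the interferon differences was not tested. For MHC class I genes the medians were 1.87, 2.03, 1.00 and -0.21, and 7 of 10 differed from WT above 0. These WT medians rest in part on immortalized WT library 4, in which Irf7 was at 0.70 CPM, against 58.8 and 88.8 CPM in the other 2 and between 27.9 and 41.2 CPM in primary WT libraries. Without that library, 21 of 30 interferon-stimulated and 8 of 10 MHC class I genes differed from WT above 0, and the median difference of the former moved from 2.36 to 1.09. Primary levels stood apart too, with Irf7 between 6.26 and 9.68 CPM in primary MycKO libraries, below every primary WT library.

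**Figure D3:**
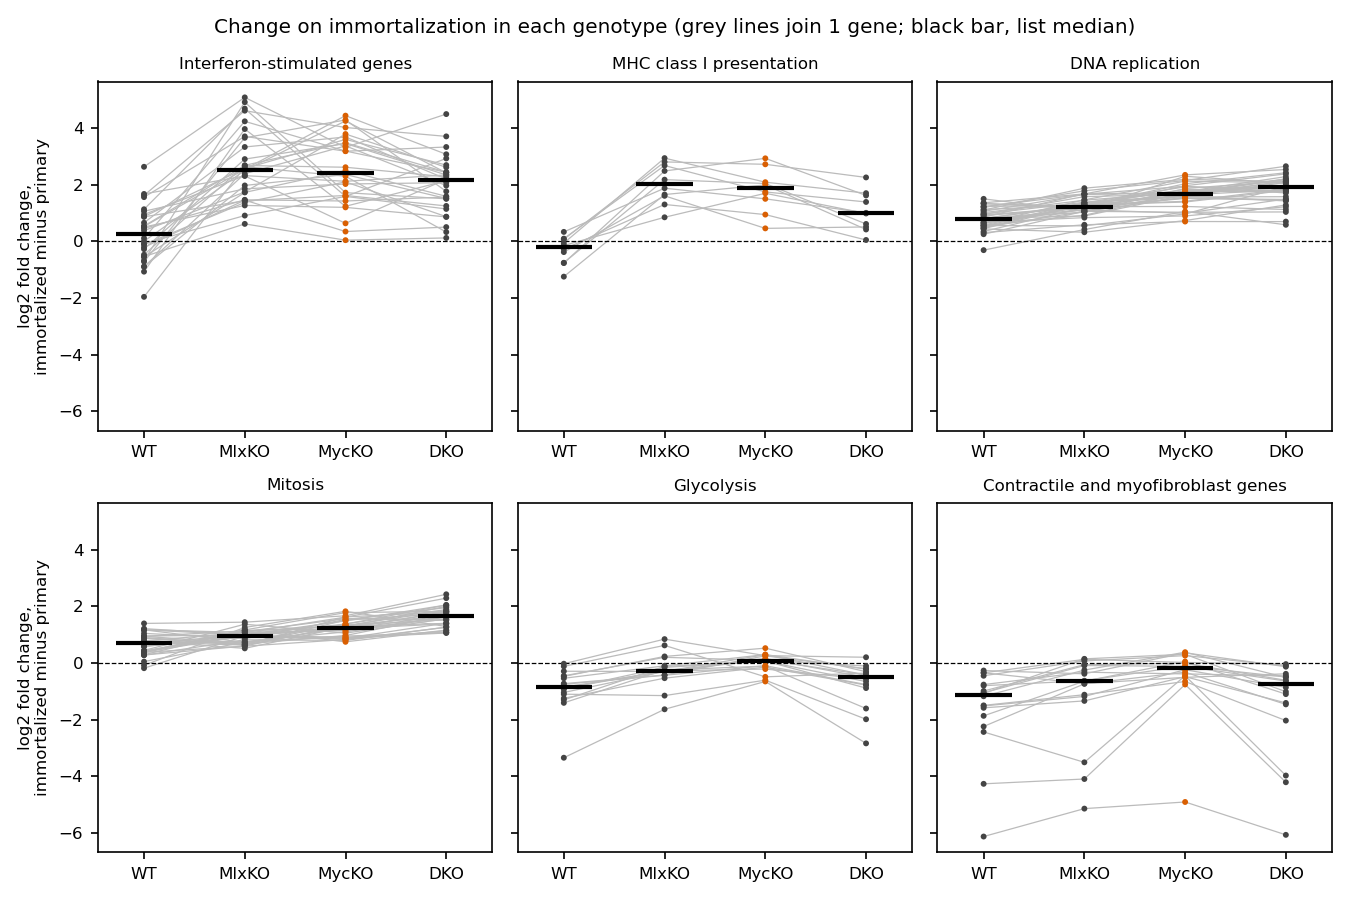
Log2 fold changes on immortalization (24-library fit) are plotted for the members of 6 gene lists in WT, MlxKO, MycKO (orange) and DKO cells, with grey lines joining a gene and black bars at list medians. Interferon-stimulated genes have medians of 0.25, 2.53, 2.44 and 2.17, and glycolysis genes -0.86, -0.28, 0.07 and -0.51.

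The change of glycolysis and contractile genes also differed from that in WT and DKO cells. Of 17 glycolysis genes, 15 had a difference from WT above 0 and 0 below, with medians of 0.07 in MycKO and -0.86 in WT cells, and 14 had a difference from DKO above 0. Of 18 contractile genes, 15 differed from WT and 11 from DKO, all above 0. Sterol genes differed from those in MlxKO cells, with 18 of 23 above 0 and medians of 0.42 in MycKO and -0.39 in MlxKO cells. Collagen chains had median changes below 0 in every genotype, -2.05 in MycKO, -1.46 in WT, -1.58 in MlxKO and -1.53 in DKO cells. Of 20, 9 had a difference from WT below 0 and 4 above. Myc itself changed by -1.17 in MycKO and -0.56 in WT cells, a difference that did not pass the test (-0.62, adjusted p = 0.30).

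The single genes whose change differed most from that in WT cells were Thbs4, Eln, Cdsn, Svep1 and Mest below 0 and Ifi27l2a, Stmn2, Irf7, Ankrd1 and Trim30a above 0. Thbs4, a thrombospondin, was at 6.81, 6.33 and 7.44 CPM in primary and 0.77, 0.47 and 0.65 CPM in immortalized MycKO libraries, but at 2.37, 2.34 and 2.29 CPM in primary and 124, 174 and 131 CPM in immortalized WT libraries. Svep1, a matrix adhesion gene, was between 383 and 416 CPM in primary and 32.9 and 38.9 CPM in immortalized MycKO libraries, whereas WT cells went from between 250.1 and 262 CPM to between 588 and 660 CPM. Ankrd1, a mechanically responsive cofactor gene, was between 47.6 and 65.8 CPM in all 6 MycKO libraries and in WT libraries went from between 46.8 and 57.6 CPM to between 0.11 and 7.01 CPM in the immortalized state. Mest, an imprinted gene, was at 1622 and 1636 CPM in immortalized WT libraries 2 and 3 and 109 CPM in library 4, against between 29.6 and 33.4 CPM in immortalized MycKO libraries. Each of these 10 kept its direction and its call without immortalized WT library 4.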

How the data were processed

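Poly-A RNA of cultured fibroblasts was sequenced as directional libraries. The authors mapped reads to GRCm39 with CLC Genomics Workbench. The deposited values are a normalized signal, reads in CPM after a scaling that is not named in the sources used here. Each value was a whole number of reads times a step constant within its library (100% whole within 0.01), so reads and depth could be recovered. Primary and immortalized values came from separate tables, joined by gene identifier, and the 6 libraries were scaled together by TMM (edgeR 4.0.16).

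A gene entered the test when 3 or more of the 6 libraries held 1 CPM or more as deposited. Testing was done on log2(CPM + 1) with limma 3.58.1 in R 4.3.3, two-sided, with Benjamini-Hochberg adjustment over all genes tested and a threshold of 0.05. A fold change on this scale understates that of low genes, and folds given as such are ratios of mean CPM. Differences between genotypes were fitted over all 24 libraries. Alternatives were edgeR's quasi-likelihood test and DESeq2 1.42.0 on recovered reads, other scalings, filters and pseudocounts, and each library left out. On simulated counts for the MycKO comparison (12571 genes), limma recovered 97% of 100 genes changed by 0.75 log2 units. It recovered 100% of 100 genes changed by 1.5 log2 units and called 13 of 12371 unchanged genes. Most genes in these counts were unchanged, whereas 6229 of 12665 genes were called in the real libraries. Whether these rates hold for the real libraries was not tested.

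Gene lists and members were chosen with earlier results of these data known. Named genes were the 10 largest called changes without overlap in each direction, the largest called members of each list, the members of the Myc network, T-antigen and CDK inhibitor lists, and the largest genotype differences. Other list members were named after their values were seen, and some genes that the rule names are not reported here. Gene coordinates are from GENCODE vM39, which held 41181 of the 41710 genes, and the share of 50-base stretches that a gene has in common with other annotated genes was computed from its transcripts. Figures were drawn with matplotlib 3.10.9.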

Additional observations from a re-analysis of the deposited data

Results flagged for a closer look

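The change on immortalization in MycKO cells differed from that in another genotype, in limma with Benjamini-Hochberg adjustment, for 5438 genes against WT, 3888 against MlxKO and 3456 against DKO. The genes below are those with the largest called differences, each given as the change in MycKO minus the change in the other genotype on the log2 scale. Against WT, the differences below 0 were -7.69 for Thbs4, -5.34 for Eln, -4.73 for Cdsn, -4.72 for Svep1 and -4.64 for Mest. Those above 0 were 5.88 for Ifi27l2a, 5.81 for Stmn2, 5.01 for Irf7, 4.81 for Ankrd1 and 4.78 for Trim30a. Without immortalized WT library 4, the difference was 3.20 for Irf7, 3.98 for Trim30a and -5.94 for Mest, each still past the threshold. Against MlxKO, the differences were -4.86 for Thbs4, -4.92 for Fosb, 5.96 for Pitx1, a hindlimb transcription factor, and 4.82 for Ptprz1, a receptor phosphatase of glia. Fosb, an immediate early gene, was uneven among immortalized MlxKO libraries, at 32.2, 128 and 54.7 CPM. Against DKO, they were 6.40 for Ptprz1, -7.10 for Tfap2b, -6.03 for Ptprq and 6.12 for Crabp1.

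Ptprz1 was between 63.3 and 87.5 CPM in primary and between 84.2 and 117 CPM in immortalized MycKO libraries, whereas immortalized MlxKO and DKO libraries held at most 1.25 CPM. Crabp1, a retinoic acid binding protein, was between 105 and 175 CPM in immortalized MycKO and at most 0.58 CPM in immortalized DKO libraries. Tfap2b, a transcription factor of the neural crest and limb, went the other way, with no read in the 3 immortalized MycKO libraries and between 49.1 and 52.5 CPM in immortalized DKO libraries, so its fitted difference depends on the pseudocount. Each of these lines stems from a single transduction, and line, ploidy and genotype cannot be told apart.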

How the results depend on the processing

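The count of 6229 called genes ranged between 4552 and 6785 with a library left out, and was 2153 at a change of at least 1 log2 unit. Counts of differences ranged with a library left out between 4487 and 6697 against WT, 3013 and 3916 against MlxKO, and 2819 and 3446 against DKO, and at 1 log2 unit were 1966, 1402 and 1507. Fitted over only the 12 libraries of each contrast, 3610, 4500 and 4046 genes differed, so the order of these counts depends on the fit. The share of called genes that were higher, 52.7%, was 49.0% with DESeq2, 67.2% with library totals, 65.2% with values as deposited, 49.9% with median-ratio scaling, 56.9% for genes of at least 5 CPM, 47.6% with no filter, 50.4% for genes called by all 3 tools, 46.0% at 1 log2 unit, and between 49.2% and 56.4% with a library left out. No paired analysis was possible because the columns carry library numbers not tied to the labels' replicate numbers.

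Among named genes, 2035 of the alternative values kept direction and side of the threshold, 54 lost the call, 8 gained it and 19, all of genes not called, changed sign. With a library left out the change ranged between -0.0376 and 0.233 for Mga, -0.0353 and 0.0714 for Trp53, -0.133 and 0.0174 for Rbl2, -0.112 and 0.213 for Ep300, -0.119 and 0.121 for Cul7, and -0.0196 and 0.0485 for Ppp2r1a. Trp53 was -0.0202 with DESeq2 and -0.006 with median-ratio scaling, and Ppp2r1a -0.019 and -0.0074. Rbl2 was 0.0991 with library totals and 0.0737 as deposited, and Cul7 0.160 and 0.134, or 0.0041 with edgeR. The cause was not tested. Depth limits statements on genes near 3 reads, between 0.143 and 0.187 CPM.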
